A study of Mus musculus with 98 samples.

Results

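Overexpression of ACSS2 was compared with an empty vector in hippocampal neurons that had also been given human tau material and were collected on day 9 of culture. The comparison rests on 6 RNA-seq libraries of the 98 in the series: 3 titled upACSS2 + hAD-tau and 3 titled vector + hAD-tau, chosen by culture day, virus and treatment. All were primary embryonic hippocampal neurons of the CD1 mouse strain, a culture of neurons with the glia that grow among them. They received a PhP.eB virus on day 5 of culture, which either carried Acss2 (upACSS2) or was the vector, and after 48 hours were washed and given hAD-tau on day 7. The 6 libraries were fitted together with the other day 9 neurons, 3 with upACSS2 and 3 with vector, which had the same virus and PBS in place of tau. No group went without a virus, so every difference below is between viruses. The treatment entry of the labels lists PBS for the libraries titled vector + hAD-tau, against their titles, and it is also at odds with the titles of upACSS2 with PBS. Groups were taken from the titles, and no transcript measured here checks which cultures had tau.

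ACSS2 joins acetate to coenzyme A to give acetyl-CoA, which feeds lipid synthesis in the cytosol and, in the nucleus, the acetylation of histones by acetyltransferases. In neurons the enzyme has been studied for its presence on chromatin at genes of memory. The material called hAD-tau is named in the labels only by that abbreviation. The labels do not say whether replicates were separate cultures, so p-values measure the spread between these libraries, which may be technical.

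The libraries held 14603730 to 28544640 counts in the 6 tau samples, and 14603730 to 33960722 over all 12. The neuronal genes Map2 and Tubb3 lay at 2417 to 2675 and 1495 to 1593 CPM (counts scaled to the size of the library) in the 6 tau libraries. Markers of microglia were near the floor, with 4 of 16 past the expression filter and a summed level of 19.7 to 21.8 CPM with upACSS2 and 19.9 to 21.1 CPM with vector. Of 18 astrocyte markers 17 passed the filter. They summed to 3065 to 3239 CPM with upACSS2 and 3022 to 3200 CPM with vector, so astrocyte RNA was present in both groups at overlapping levels. In bulk RNA, fewer cells of a type and less RNA per cell cannot be told apart. Vector replicate 3 in tau stood apart from the other libraries. The ribosomal precursor Rn45s took 1.03% of its counts and 0.199% to 0.474% in the other 11 libraries, and the 20 most abundant genes took 6.01% against 5.22% to 5.4%.

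Acss2 itself (GRCm38.p6 chromosome 2, 155518043 to 155562743) was measured first, since it is the gene carried by the virus. It stood at 1963, 2040 and 1727 CPM in the upACSS2 libraries and at 45.1, 43.3 and 49.7 CPM in the vector libraries. The groups were far apart, with means of 1910 ± 163 and 46.0 ± 3.28 CPM (SD, n = 3 each). This is a 41.5-fold ratio of means and, on the log2 scale, a rise of 5.38 ± 0.09 (SE; edgeR adjusted p 8.69e-22). An exact permutation test of the 6 CPM values gave p = 0.1, two-sided, the smallest that 3 against 3 can give. Counts per gene symbol do not separate transcripts of the virus from those of the neurons' own gene. In PBS the same virus gave 1412, 1636 and 1855 CPM against 48.5, 39.3 and 43.5 CPM, and the log2 effect in tau exceeded that in PBS by 0.17 (adjusted p 0.493, edgeR), which is within the spread between libraries.

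Beside a change of that size in Acss2, the rest of the transcriptome moved little. Of 14022 genes tested, 97 passed an adjusted p of 0.05 (0.692%), 51 of them higher with upACSS2 (0.364%) and 46 lower (0.328%). At an unadjusted p under 0.05 there were 1761. Leaving Acss2 out, the median size of the 96 other changes was 0.34 on the log2 scale, a 1.27-fold change. Of these, 72 were under 0.5 and only 3 reached 1. They were the predicted gene Gm10638 (1.10), Pdzd7 (-1.04), and the microRNA gene Mir6236 (-2.08), and the 3 are named because their values stood out. By RefSeq span, Pdzd7 shares 9611 bases with Sfxn3 and Gm10638 shares 308 with Siah1a, so reads may have been divided between the genes of each pair. Spread between replicates, as edgeR's biological coefficient of variation, came to 0.042 on day 9 and 0.189 on day 21. In 96 of the 97 genes the 3 upACSS2 values did not overlap the 3 vector values, which was also so for 17% of all genes tested. The plot of fold change against expression shows Acss2 alone at the top and the other called genes in a narrow band.

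**Figure D1:**
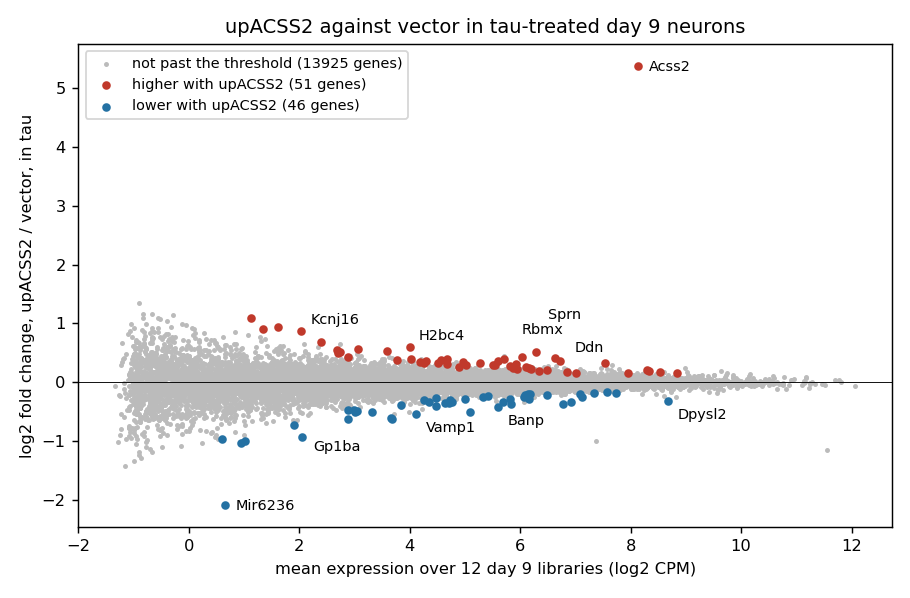
Each point is 1 of 14022 genes, with the mean log2 CPM of the 12 day 9 libraries on the x axis and the log2 fold change of upACSS2 over vector in tau on the y axis. Red points are the 51 genes called higher, blue points the 46 called lower and grey points the rest. Acss2 lies at 5.38, and 72 of the other 96 called genes lie within 0.5 of the zero line.

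The exception to non-overlap was Mir6236. Its values were 1.29, 0.665 and 0.703 CPM with upACSS2 and 1.28, 2.08 and 8.42 CPM with vector, and the highest value came from vector replicate 3, the library with 10250 CPM of Rn45s against 1993 to 2718 CPM in the other 5 tau libraries. The part of that library's Rn45s in the Mir6236 result was not tested. Without this library the log2 fold change of Mir6236 was at its smallest over the 12 omissions, -0.93.

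The number of calls depended on single libraries. It was 38, 29 and 27 without upACSS2 replicates 1, 2 and 3 in tau, 43 and 14 without vector replicates 1 and 2 in tau, 132 without vector replicate 3 in tau, and 56 without upACSS2 replicate 1 in PBS. The other 5 omissions, all of PBS libraries, gave 71 to 108. Of the 97 genes, 8 were called whichever of the 12 libraries was omitted: Acss2, Rbmx, Sprn, Ddn, Banp, Vamp1, Yipf2 and Akap12. All 97 kept their direction under every omission. DESeq2 called 80 of the 97, and edgeR with only the 6 libraries compared called 44 of them.

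Rbmx had the smallest adjusted p after Acss2. It encodes an X-linked nuclear RNA-binding protein that takes part in splicing, and was at 95.6, 89.8 and 84.1 CPM with upACSS2 and 60.2, 63.4 and 64.0 CPM with vector. The groups were well apart, and the rise was 0.52 ± 0.06 on the log2 scale (SE; edgeR adjusted p 1.78e-05). In the separate PBS libraries the change was 0.46 (adjusted p 7.16e-05).

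The other 2 of these genes that rose are both expressed in neurons. Ddn, which encodes dendrin, a protein of dendrites and postsynaptic sites, was at 119, 119 and 121 CPM with upACSS2 and 92.0, 90.1 and 97.1 CPM with vector. It rose by 0.37 ± 0.05 on the log2 scale (SE; edgeR adjusted p 1.92e-04). Sprn, which encodes Shadoo, a relative of the prion protein found in brain, was at 111, 123 and 120 CPM against 91.3, 89.3 and 86.4 CPM. It rose by 0.41 ± 0.05 (SE; edgeR adjusted p 2.27e-04), and the value in PBS was 0.43 (adjusted p 1.14e-04). Its RefSeq span shares 159 bases with Mtg1, so reads of this pair may have been divided between them.

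The 4 that fell have unlike roles. Banp encodes a DNA-binding protein of the nuclear matrix that occupies an unmethylated motif at promoters. Its values were the most even of the group, 43.7, 44.1 and 41.9 CPM with upACSS2 and 57.5, 58.2 and 57.4 CPM with vector, a fall of 0.42 ± 0.05 on the log2 scale (SE; edgeR adjusted p 1.92e-04). Vamp1 encodes a vesicle SNARE protein of presynaptic terminals and was the 1 member of the presynaptic list that passed. It was at 15.3, 15.3 and 13.6 CPM with upACSS2 and 21.3, 20.4 and 22.2 CPM with vector, a fall of 0.53 ± 0.08 on the log2 scale (SE; adjusted p 0.00138). Yipf2, which encodes a membrane protein of the Golgi, was at 10.0, 9.05 and 10.99 CPM against 17.4, 15.6 and 13.6 CPM (log2 fold change -0.62, adjusted p 0.00498). Its RefSeq span shares 786 bases with Carm1, which moved the other way without passing (0.16, adjusted p 0.173), so reads of this pair may have been divided between them. Akap12, which encodes a scaffold for protein kinase A, was at 53.5, 55.9 and 49.6 CPM against 65.0, 73.9 and 66.3 CPM (log2 fold change -0.37, adjusted p 0.00378). In none of the 4 did the groups overlap.

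Beyond these, and leaving out predicted symbols, the largest rises were in lowly expressed genes of mixed function. Prtn3, a serine protease best known from granulocytes, was at 3.96, 3.58 and 4.46 CPM with upACSS2 and 2.20, 2.30 and 1.78 CPM with vector (log2 fold change 0.93, adjusted p 0.0122). Kcnj16, an inwardly rectifying potassium channel, was at 5.42, 4.40 and 4.04 CPM against 2.81, 2.64 and 2.05 CPM (0.87, adjusted p 0.0339). Crhbp, the secreted protein that binds corticotropin-releasing hormone, was at 5.68, 7.11 and 5.73 CPM against 4.46, 3.14 and 3.84 CPM (0.69, adjusted p 0.0437). It was the 1 called gene of the list of neuropeptides and granins. Tcea2, a transcription elongation factor, rose by 0.57, Slc25a18, a mitochondrial glutamate carrier, by 0.54, the locus LOC432842 by 0.53, Nnmt, which methylates nicotinamide, by 0.51 and the rhophilin gene Rhpn1 by 0.49. Their adjusted p-values in edgeR ran from 0.011 to 0.0483. The calls of Slc25a18, Nnmt and Rhpn1 were lost in DESeq2 (adjusted p 0.0646, 0.0762 and 0.0817) and, like that of Crhbp (0.0575), with only the 6 libraries compared (0.0877, 0.0907 and 0.0703).

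Among called genes without overlap and with mean log2 CPM of 1 or more, Sbk3 and Gp1ba had the largest falls. Gp1ba, a subunit of the platelet receptor for von Willebrand factor, was at 3.31, 2.56 and 3.55 CPM with upACSS2 and 5.75, 7.19 and 5.14 CPM with vector (log2 fold change -0.93, adjusted p 0.00869). Another subunit of that receptor, Gp1bb, rose by 0.39 (adjusted p 0.0152), though its RefSeq span lies against that of Septin5, with 593 bases shared. Sbk3, a kinase gene, was at 0.946, 1.59 and 1.55 CPM against 3.06, 2.98 and 2.05 CPM (-0.997, adjusted p 0.044). Slc9a5, a sodium and proton exchanger of neurons, was at 6.62, 5.68 and 5.97 CPM against 9.05, 8.98 and 10.3 CPM (-0.63, adjusted p 0.00966). Trim17, an E3 ubiquitin ligase, fell by 0.73 on the log2 scale, Mxra7 by 0.61, the calcium-binding copine Cpne5 by 0.50, the chromatin protein Hmgb2 by 0.49, Tcfl5, a basic helix-loop-helix transcription factor, by 0.48 and Pgam2, a phosphoglycerate mutase, by 0.47. Tcfl5 and Pgam2 were not called in DESeq2 (adjusted p 0.066 and 0.0536). With only the 6 libraries compared, Sbk3, Tcfl5 and Pgam2 (0.0622 each) and Hmgb2 (0.0803) were not called. The plot of named genes by library gives their values, and the 2 groups lie apart in each because the naming rule required it.

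**Figure D2:**
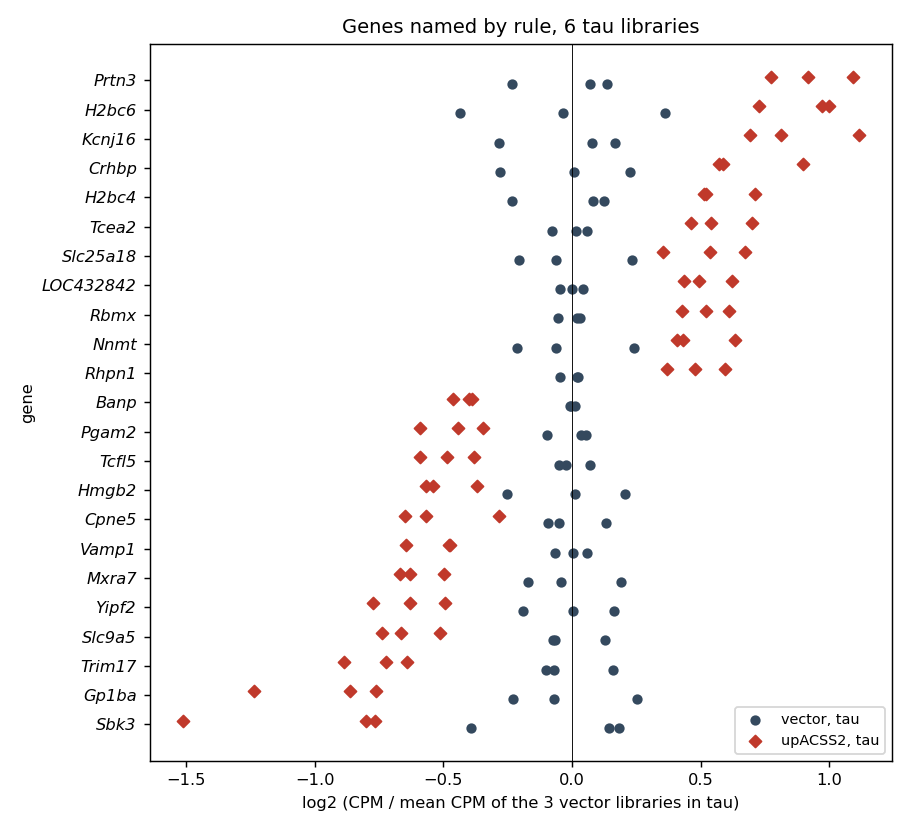
The x axis gives log2 of each library's CPM over the mean CPM of the 3 vector libraries in tau. The genes are those with the largest called changes, other than Acss2, among genes that met the naming rule. That rule set a minimum mean expression and excluded predicted symbols and genes in which the groups overlapped. Circles are the 3 vector libraries and diamonds the 3 upACSS2 libraries. The diamonds lie wholly to the right of the circles for 11 genes, from Prtn3 to Rhpn1, and wholly to the left for 12, from Banp to Sbk3. This separation was a condition of the choice.

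Further called genes are given here by what they do. They were picked after the values were seen, from no fixed list, so they show nothing about a class as a whole. Among called genes that act on RNA, Rbmx (0.52), the helicase gene Ddx39 (0.37), the stress granule protein Tia1 (0.23), the RNA exosome helicase Skiv2l (0.23), Rsrp1 (0.22) and the splicing factor Sf3b3 (0.17) were higher. Akap8l (-0.23), the terminal uridylyltransferase Tut7 (-0.20) and Scaf1 (-0.18) were lower. Among those of vesicle traffic, the neuronal dynamin Dnm1 was higher by 0.15, at 477, 489 and 488 CPM against 447, 426 and 436 CPM. The widely expressed dynamin Dnm2 fell by 0.25 and the SNARE-binding gene Stxbp2 by 0.39. Calbindin (Calb1, 0.31), the IP3 receptor Itpr1 (0.25) and visinin-like Vsnl1 (0.20), of calcium signalling and binding, were higher, and the calmodulin-binding Pcp4 (-0.20) was lower.

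The called falls also held the transcription factors Nfia (-0.37) and Sox11 (-0.34), the guidance molecule Rgma (-0.29), the semaphorin mediator Dpysl2 (-0.32) and the planar polarity cadherin Celsr1 (-0.34). DESeq2 did not call Sox11 (adjusted p 0.178) or Dpysl2 (0.0653). Among receptors and secreted factors, the relaxin-family receptor Rxfp3 (0.30), the growth factor Pdgfb (0.37) and the GDNF-family coreceptor Gfra4 (0.31) rose and the nicotinic receptor subunit Chrna4 (-0.34) fell. Olig1, a transcription factor of the oligodendrocyte lineage, was the 1 member of that lineage's list that passed. It was at 180, 158 and 188 CPM against 135, 130 and 156 CPM, a rise of 0.32 (adjusted p 0.0172). The lowest upACSS2 library lay just above the highest vector library. The rest of the list did not move with it: 9 of 14 tested members had negative values, with a median of -0.11, and Olig2 was at 16.4, 13.4 and 16.3 CPM against 17.4, 11.9 and 20.3 CPM. The 14 tested members of the list summed to 229 to 264 CPM with upACSS2 and to 204 to 245 CPM with vector. In PBS 8 of the list's genes were called lower and none higher, where 5.35% of all genes were called lower. Olig1 had a value of -0.03 there, and its difference between tau and PBS missed the threshold (0.36, adjusted p 0.0552).

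Replication-dependent histone genes, whose transcripts carry the bulk of histone synthesis in dividing cells and in many cases end without a poly(A) tail, stood out among the rises. This list was built from symbols after the values were seen. Of 67 such genes 11 passed the filter, and 4 were called higher, where 0.364% of all genes were, and none lower. Since the list was chosen from these values, its count supports nothing. Values were positive for 10 of 11, with a median of 0.39 where that of all genes was 3e-04. Together the 11 tested genes summed to 142 to 147 CPM with upACSS2 and 98.3 to 120 CPM with vector. Of the 67 genes, 12 were at 0 in all 6 libraries. H2bc4 was at 19.4, 16.98 and 17.04 CPM against 12.6, 10.1 and 12.9 CPM (log2 fold change 0.59, adjusted p 0.00582). H2aw was at 56.6, 58.0 and 58.1 CPM against 48.7, 38.1 and 45.4 CPM (0.39, adjusted p 0.0132). H2bu2 was at 33.0, 34.4 and 36.7 CPM against 29.1, 25.2 and 28.0 CPM (0.35, adjusted p 0.0122). H2bc6 was at 3.27, 2.76 and 3.34 CPM against 2.14, 1.63 and 1.23 CPM (0.90, adjusted p 0.0473), and this call was lost in DESeq2 (adjusted p 0.0521) and with only the 6 libraries compared (0.0617). The linker histone H1f4 was the 1 tested member with a negative value (-0.54, adjusted p 0.673).

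The PBS libraries, which share none with the tau comparison, gave a median of 0.35 for the same 11 genes, and 3 were called higher there, where 4.9% of all genes were. H2bc6, H2aw and H2bu2 had effects of 0.91, 0.36 and 0.39 in PBS, close to those in tau, while H2bc4 had 0.22 (adjusted p 0.116). Of the 22 proliferation genes, all tested, 18 had negative values with a median of -0.16, and 0 were called by edgeR or DESeq2, with 3 at an unadjusted p under 0.05. In PBS 11 of the 22 were called lower and none higher, with a median of -0.37, where 5.35% of all genes were called lower. Their summed level in tau was 172 to 182 CPM with upACSS2 and 183 to 212 CPM with vector. The most abundant, Pcna, was at 24.8, 22.8 and 23.7 CPM against 20.1, 20.9 and 25.7 CPM, and Top2a at 16.9, 15.9 and 16.6 CPM against 18.6, 16.8 and 22.1 CPM. Histone genes have near-identical copies, and their reads may have been divided among them.

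The promoters of 3 of the 4 called histone genes were in the RefSeq table used here, and are shown because genes of this class share promoter elements, among them a CCAAT box, a TATA box and, in H2B genes, an octamer. The stretches are the 250 bases before the start, on GRCm38.p6. They lie at chr11:58948661-58948910 on the plus strand for H2bu2 and chr11:58954435-58954684 on the plus strand for H2aw. H2bc6 has 2 starts in the table, both on the minus strand, with windows at chr13:23585971-23586220 and chr13:23621095-23621344, and the first, which holds the octamer, is shown. Capitals mark ATTTGCAT (the octamer), CCAAT and TATAAA on either strand.
H2bu2: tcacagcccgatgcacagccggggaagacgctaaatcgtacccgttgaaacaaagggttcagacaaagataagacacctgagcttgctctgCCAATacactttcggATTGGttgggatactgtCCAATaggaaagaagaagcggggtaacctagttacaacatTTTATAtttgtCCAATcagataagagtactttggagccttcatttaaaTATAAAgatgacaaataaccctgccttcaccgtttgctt
H2aw: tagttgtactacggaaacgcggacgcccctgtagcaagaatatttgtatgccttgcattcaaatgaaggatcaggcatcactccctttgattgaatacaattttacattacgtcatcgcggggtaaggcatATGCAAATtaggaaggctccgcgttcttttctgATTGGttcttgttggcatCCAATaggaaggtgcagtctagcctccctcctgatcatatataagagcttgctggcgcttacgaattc
H2bc6: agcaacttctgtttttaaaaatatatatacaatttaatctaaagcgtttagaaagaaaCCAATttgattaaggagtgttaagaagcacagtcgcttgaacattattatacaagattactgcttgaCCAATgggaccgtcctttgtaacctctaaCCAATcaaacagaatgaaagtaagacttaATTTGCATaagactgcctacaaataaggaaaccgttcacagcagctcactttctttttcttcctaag
The octamer occurred once in the H2aw stretch, 119 bases before the start, and once in the H2bc6 stretch shown, 67 bases before that start, but not in the window of the other H2bc6 start. CCAAT was found 4 times in H2bu2, 2 times in H2aw and 3 times in each H2bc6 window, and TATAAA 2 times in H2bu2. Of 32851 mouse promoter windows in the table, 1.6% held the octamer, 33.8% CCAAT and 12.4% TATAAA. A match of letters describes the sequence and is not evidence that a factor bound it.

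H2aw and Trim17 need to be read together. The H2aw gene (chromosome 11, 58954685 to 58955192) lies wholly within the RefSeq span of Trim17 (58954671 to 58973075), with 508 bases shared, and they moved in opposite directions, 0.39 and -0.73. Trim17 was at 2.92, 2.61 and 3.09 CPM with upACSS2 and 5.38, 4.49 and 4.59 CPM with vector, where H2aw was at 38.1 CPM or more in all 6 libraries. How the counting assigned reads of the shared bases is not given in the sources used here. Overlap with another tested gene was found for 24 of the 96 called genes matched to RefSeq, and this was the only pair in which both were called.

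Enzymes and carriers of acetate and acetyl-CoA other than Acss2 were examined next. Of 17 tested members 0 were called by edgeR or DESeq2, 3 had an unadjusted p under 0.05, and the median was 0.04. Acly, which makes cytosolic acetyl-CoA from citrate, was at 742, 789 and 757 CPM with upACSS2 and 700, 701 and 710 CPM with vector. Its groups did not overlap, yet the value of 0.12 missed the threshold (adjusted p 0.261). Acot7 and citrate synthase (Cs) had values of 0.05 and 0.02. The highest values of the list were those of 2 lowly expressed transporters, Slc16a3 (0.82, adjusted p 0.568) and the citrate carrier Slc13a5 (0.58, adjusted p 0.207). The 14 histone acetyltransferases had a median of -0.03, with 0 called by edgeR or DESeq2 and 0 at an unadjusted p under 0.05. Ncoa1, Ncoa2 and Taf1, the most abundant, had values of -0.03, -0.07 and 0.03. The 18 deacetylases and sirtuins had a median of -0.02, with 0 called by either tool and 4 unadjusted. Hdac2, Hdac5 and Hdac3 had values of 0.02, 0.12 and -0.02.

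Genes of sterol synthesis and uptake leaned upward as a list without any passing the test. All 23 tested members had positive values, where 50.1% of all genes did, with a median of 0.14. By edgeR 0 were called, 13 had an unadjusted p under 0.05, and DESeq2 called 2, Fdps and Mvk, which act in its mevalonate branch. Without the filter on low counts 11 passed in edgeR, where 368 of 20654 genes did. Hmgcs1 was at 3596, 3669 and 3496 CPM with upACSS2 and 3382, 3477 and 3585 CPM with vector, with overlap, and Sqle at 587, 619 and 608 CPM against 586, 553 and 575 CPM. The 23 tested members summed to 9156 to 9535 CPM and 8642 to 8807 CPM, without overlap. The list's median lay between 0.12 and 0.17 when any 1 of the 6 libraries was left out, and was -0.04 in PBS. Fatty acid synthesis genes had positive values in 17 of 20, a median of 0.04, 0 calls by either tool and 6 at an unadjusted p under 0.05. Fasn was at 1127, 1190 and 1207 CPM against 1097, 1069 and 1026 CPM (0.14, adjusted p 0.165), Scd2 had a value of 0.08 and Fads2 one of 0.10.

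Glycolysis and hypoxia genes had positive values in 18 of 22 tested, with a median of 0.15 in tau and -0.05 in PBS. By edgeR 0 passed, 10 had an unadjusted p under 0.05, and DESeq2 called Aldoa and Eno1. Without the filter 9 passed in edgeR, where 368 of 20654 genes did. The hexokinase Hk2 and the glucose transporter Slc2a1 had the values 0.65 and 0.44. Aldoa was at 790, 934 and 803 CPM with upACSS2 and 751, 716 and 753 CPM with vector, and Ldha at 528, 624 and 486 CPM against 472, 448 and 532 CPM. Pkm was at 940, 976 and 861 CPM against 870, 816 and 930 CPM. The highest value of Aldoa, Ldha and Pkm came from upACSS2 replicate 2, and without it the list's median fell from 0.15 to 0.06.

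Activity-induced genes, the immediate early genes that follow synaptic firing, had positive values in 19 of 24, with a median of 0.14. By edgeR 0 passed, 9 had an unadjusted p under 0.05, and DESeq2 called Egr3 and Fosl2. Without the filter 5 passed in edgeR, where 368 of 20654 genes did. Fosl2 was at 109, 105 and 112 CPM with upACSS2 and 99.4, 95.7 and 91.4 CPM with vector (0.19, adjusted p 0.07). Nr4a3, the most abundant, was at 527, 506 and 540 CPM against 441, 500 and 503 CPM (0.12, adjusted p 0.367), and Homer1 had a value of 0.11. Fosb, with 0.62, had the highest of the list. The median of the list in PBS was -0.22, and without vector replicate 3 in tau the median in tau rose to 0.27. The plot of gene lists shows these 3 lists and the fibroblast markers at the upper end. The fibroblast list had 8 of 14 members tested, a summed level of 26.8 to 34.1 CPM with upACSS2 and 27.8 to 33.0 CPM with vector, and a median of 0.30 that became -0.00 without upACSS2 replicate 2.

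**Figure D3:**
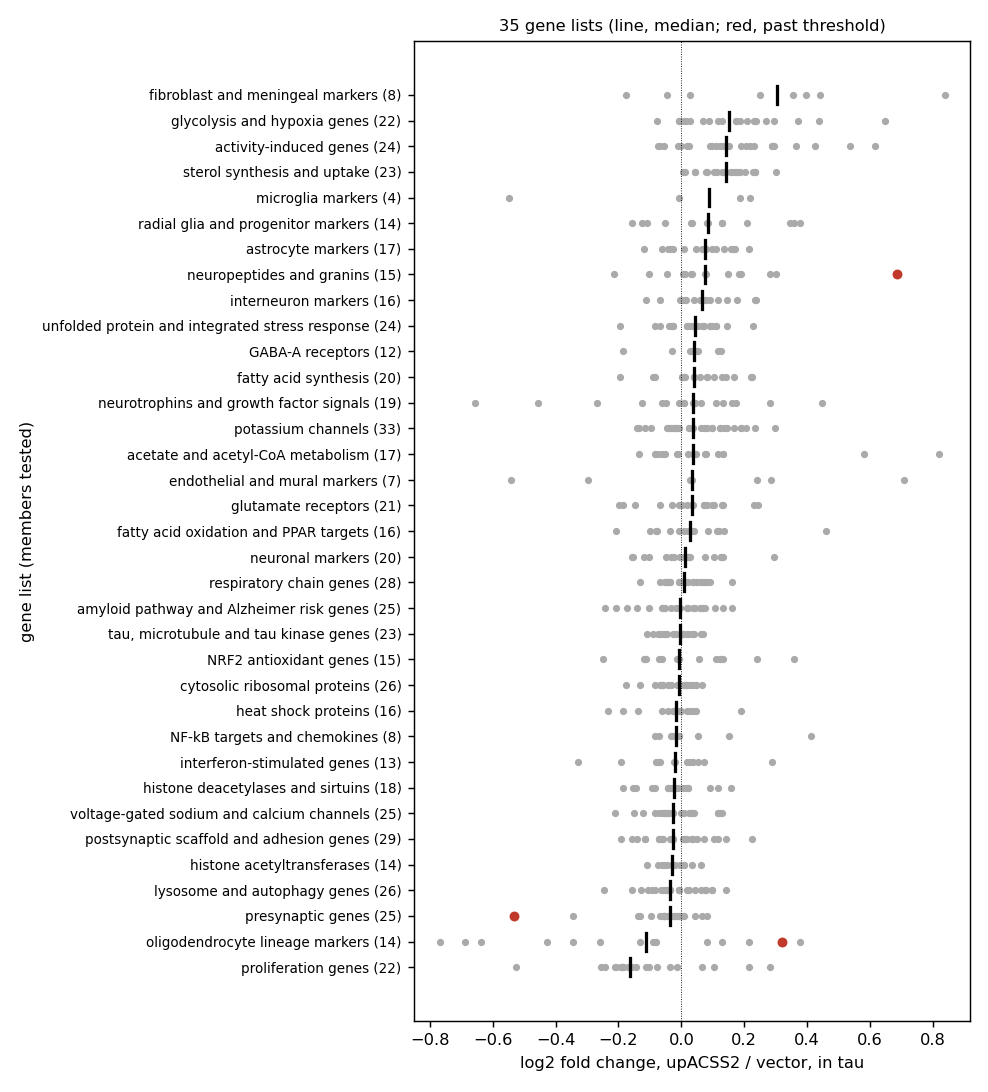
Each row is 1 of 35 gene lists with the number of members tested in brackets, and the x axis is the log2 fold change of upACSS2 over vector in tau. Points are genes, black lines the list medians and red points the called members. Red appears in 3 lists only, for Crhbp, Vamp1 and Olig1, and the medians of sterol, activity and glycolysis genes lie at 0.14, 0.14 and 0.15.

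Lists of synapses and excitability had medians near 0. Of 25 presynaptic genes tested 20 had negative values, but the median was -0.04 and Vamp1 was the only call. The 29 postsynaptic genes had a median of -0.03 with 0 called by edgeR, 4 at an unadjusted p under 0.05 and 2 called by DESeq2, Dlg4 and Nrxn2. Glutamate receptors (21 tested, median 0.03), GABA-A receptors (12, 0.04), sodium and calcium channels (25, -0.03) and potassium channels (33, 0.04) had 0 called by edgeR or DESeq2, with 4, 2, 6 and 4 at an unadjusted p under 0.05. The AMPA receptor subunit Gria1 was at 771, 763 and 753 CPM against 729, 771 and 760 CPM, which overlap.

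The virus effect in tau was then compared with that in PBS within the same fit. In PBS 1437 genes passed (10.2%). This count also depended on single libraries. It was 529 without vector replicate 1 in PBS, the lowest, and 1729 without vector replicate 3 in tau, the highest. Of the 97 genes called in tau 41 were also called in PBS, 38 with the same direction, which is 39.2% of the tau list and 2.64% of the PBS list. Leaving out Acss2, 80 of the 96 had the same sign in PBS (83.3%), where 53.6% of all genes did. Those called in both included Rbmx, Sprn, Inpp5k, Banp, Vamp1, Yipf2, Mxra7 and Hmgb2. Inpp5k, an inositol phosphatase, was at 75.1, 75.2 and 87.4 CPM against 60.5, 62.6 and 53.3 CPM in tau, with effects of 0.43 in tau and 0.46 in PBS. Kcnj16, Dpysl2 and Rgma were called in both with opposite signs.

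**Figure D4:**
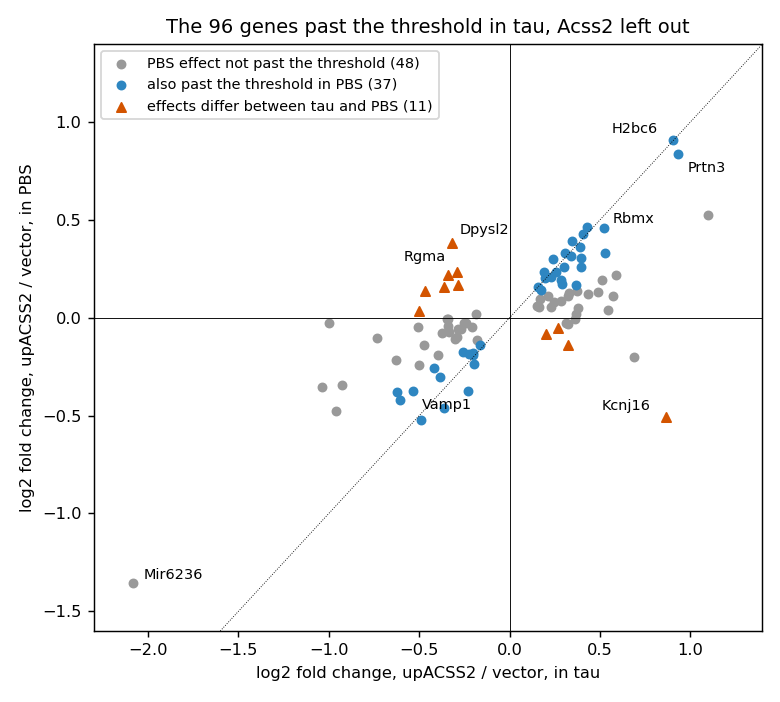
The x axis gives the log2 fold change of upACSS2 over vector in tau and the y axis that in PBS, for the 96 called genes other than Acss2. Triangles mark the 11 genes whose effects differed between tau and PBS, blue circles 37 others also called in PBS, grey circles the other 48, and the dotted line equal effects. Most points have the same sign on both axes, and Kcnj16, Dpysl2 and Rgma do not.

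A test of the difference between the effects called 93 genes (0.663%), 39 with a higher and 54 with a lower value in tau. At an unadjusted p under 0.05 there were 2409. The signs in tau and PBS were opposite in 91 of the 93, which choosing genes by a large difference favours, and 76 of the 93 were called in PBS but 11 in tau. The difference rests on the titles, with which the treatment entry conflicts for vector with hAD-tau and for upACSS2 with PBS. Whether tau and PBS were exchanged for either virus was not tested. Dpysl2 encodes CRMP2, a microtubule-binding protein of axon growth whose phosphorylated form is found with tau tangles. It was at 369, 382 and 367 CPM with upACSS2 and 478, 486 and 429 CPM with vector in tau, and at 481, 512 and 389 CPM with upACSS2 and 367, 351 and 341 CPM with vector in PBS. The vector values in tau thus lay within the range of upACSS2 in PBS, and the upACSS2 values in tau at or just above that of vector in PBS. The effect was -0.32 in tau and 0.38 in PBS, a difference of -0.70 (adjusted p 9.48e-04, edgeR). The RefSeq span of Dpysl2 shares 9453 bases with Pnma2, so reads of this pair may have been divided between them.

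Rgma, a membrane-bound repellent of growing axons, had the same pattern at a lower level. It was at 63.2, 67.3 and 66.1 CPM with upACSS2 and 81.5, 83.3 and 75.1 CPM with vector in tau. In PBS it was at 77.5, 80.2 and 71.1 CPM with upACSS2 and 63.7, 65.2 and 65.7 CPM with vector. The groups did not overlap in either treatment, and the difference of effects was -0.52 (adjusted p 0.00143). The RefSeq span of Rgma shares 255 bases with A730056A06Rik. Klf7, a transcription factor of axon growth, had a difference of -0.62 (adjusted p 9.48e-04). Its effect in tau alone missed the threshold (-0.22, adjusted p 0.0781) and that in PBS was 0.40 (adjusted p 7.19e-04). Dpysl2, Rgma and Klf7 were the 3 genes whose difference was called under each of the 12 omissions, and all 93 kept their sign under them.

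The count of differences depended on single libraries. It was 3 without upACSS2 replicate 1 in tau, vector replicate 1 or 2 in tau, upACSS2 replicate 2 in PBS or vector replicate 1 in PBS. It was 30 and 12 without upACSS2 replicates 2 and 3 in tau, 13 without upACSS2 replicate 1 in PBS and 34 without vector replicate 2 in PBS. It was 132 without upACSS2 replicate 3 in PBS, 163 without vector replicate 3 in PBS and 918 without vector replicate 3 in tau, the library with the high Rn45s.

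Of the other genes called both in tau and for the difference, Nfia (difference -0.52), Sox11 (-0.56), Trp53i11 (-0.45), Cpne5 (-0.54) and Pgam2 (-0.61) were lower in tau. Nfia, a transcription factor of glial and granule neuron development, was at 94.4, 93.3 and 104 CPM with upACSS2 and 124, 143 and 109 CPM with vector in tau, and at 110 to 123 and 102 to 104 CPM in PBS. Sox11, a transcription factor of immature neurons, was at 107, 107 and 110 CPM against 127, 164 and 119 CPM in tau, and at 117 to 139 against 106 to 120 CPM in PBS. Kcnj16 (1.37), the ubiquitin ligase gene Lonrf3 (0.46), the brain proline transporter Slc6a7 (0.32) and Vsnl1 (0.29) were higher in tau. Slc6a7 was at 76.4, 77.6 and 76.3 CPM with upACSS2 and 62.8, 61.9 and 66.8 CPM with vector in tau, where the 6 PBS libraries lay between 64.8 and 71.7 CPM. Kcnj16 went from 2.05 to 2.81 CPM with vector to 4.04 to 5.42 CPM with upACSS2 in tau, and from 4.52 to 6.80 CPM to 3.40 to 4.66 CPM in PBS.

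**Figure D5:**
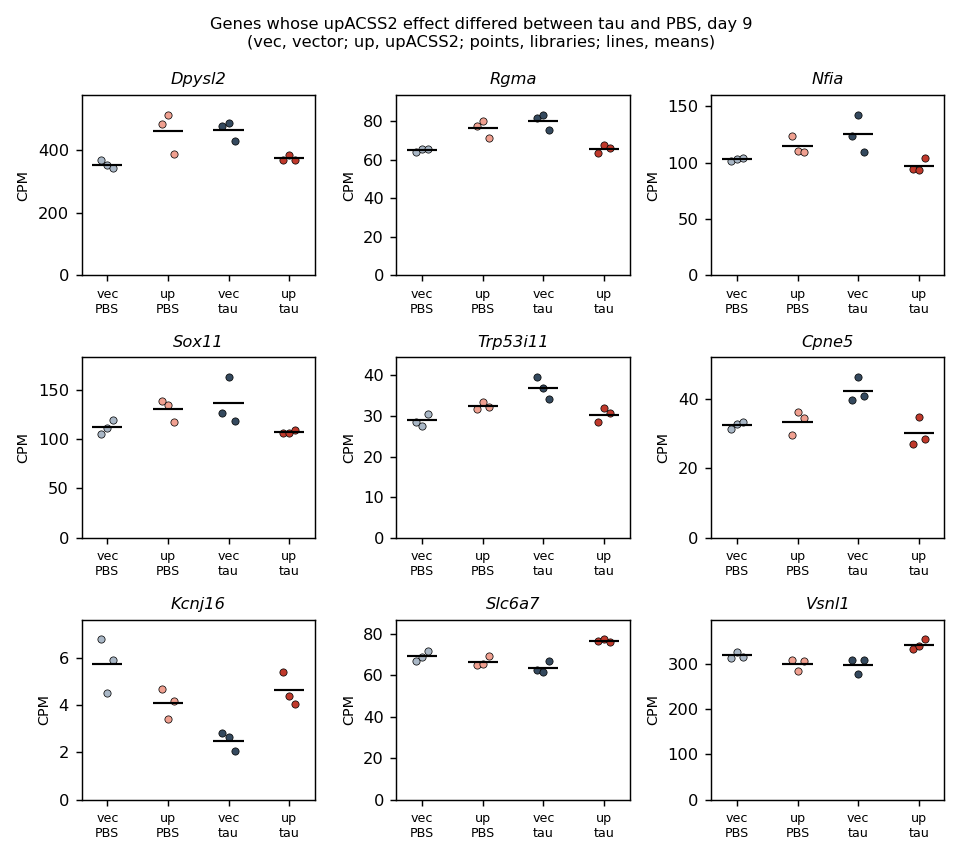
Each panel gives the CPM of 1 gene (y axis, from 0) in the 12 day 9 libraries, grouped on the x axis as vector in PBS, upACSS2 in PBS, vector in tau and upACSS2 in tau. Points are libraries and lines the means of 3. For Dpysl2 the means were 353, 461, 464 and 373 CPM in that order.

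Of 658 list members tested, 14 were called for the difference (2.13%, against 0.663% of all genes). The lists were chosen with earlier results of these data known. The synaptic genes Dlg4, Nlgn2 and Nrxn2 of the postsynaptic list and Vamp2 of the presynaptic list had differences of -0.23, -0.25, -0.28 and -0.23. Dlg4, which encodes the scaffold PSD-95, was at 405, 425 and 402 CPM with upACSS2 and 466, 457 and 434 CPM with vector in tau, and at 421 to 448 and 401 to 412 CPM in PBS. Its groups did not overlap in either treatment, but neither effect alone was called in edgeR (-0.14, adjusted p 0.0802; 0.09, adjusted p 0.127), while DESeq2 called the one in tau. Fabp7, a fatty acid binding protein of radial glia, had a difference of 0.74, from a value of 0.09 in tau and a fall of 0.66 on the log2 scale in PBS (adjusted p 0.0013). The others were Pmvk, Elovl2, Thrsp, Acadl, Acadvl, Nefm, Elavl3, Phgdh and Cycs, in 6 lists with 1 or 2 each.

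The called genes were last followed in older neurons, in libraries the day 9 comparison did not use. In 12 unstimulated day 21 libraries fitted alone, 4 genes passed for upACSS2 against vector in tau (0.0273%), and 3 of them were among the 97: Acss2 (6.21), Stxbp2 (-1.15) and Rxfp3 (0.76). Leaving out Acss2, 85 of the 96 genes had the day 9 sign on day 21 (88.5%). Among genes not called on day 9 the share was 59.7%. In the stimulated day 21 neurons 140 genes passed (0.937%), 15 of the 97 among them. There 78 of the 96 had the day 9 sign (81.3%), against 60.2% of genes not called on day 9. Day 21 vector and upACSS2 libraries may share cultures or virus stocks with those of day 9, on which the labels are silent.

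Several of the day 9 changes had values of larger size at day 21. These genes were named after their values were seen, and how many called genes had smaller values was not counted. Spread between replicates, as the biological coefficient of variation, was also wider in the older neurons. It was 0.042 on day 9, 0.189 on day 21 and 0.138 in stimulated neurons. The part of this spread in the larger values was not tested. The histone gene H2bc6 went from 0.90 on day 9 to 1.81 on day 21 and 1.96 in stimulated neurons, and H2bc4 from 0.59 to 1.27 and 1.38. Slc25a18 had 0.54, 1.95 and 2.33, Nnmt 0.51, 1.23 and 1.59, Kcnj16 0.87, 1.21 and 1.76, and the actin-associated Fam107a 0.38, 1.00 and 1.10. Stxbp2 had -0.39, -1.15 and -1.29, and Gp1ba -0.93, -0.99 and -1.04. Of these, the stimulated values of H2bc6, H2bc4, Stxbp2 and Gp1ba were called (adjusted p 0.0331, 0.0304, 0.0192 and 0.0304), and on day 21 only Stxbp2 was (0.0445). Among the 11 genes without the day 9 sign on day 21 were Dpysl2, Nfia and Akap12, with 0.21, 0.13 and 0.25 on day 21. The changes between days were not tested.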

How the data were processed

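Total RNA was extracted with Trizol and columns and 130 ng entered an NEB library kit, per the labels' protocols. The deposited values are raw counts for each gene symbol. The submitters' processing notes name STAR, featureCounts, HTSeq, DESeq2 and mm10. Annotation and strand setting are not given in the sources used here. The 12 day 9 libraries (4 groups of 3) were fitted in edgeR 4.0.16 (R 4.3.3) after its expression filter by group, which kept 14022 of 25239 genes. TMM factors and the quasi-likelihood test were used, two-sided, with Benjamini-Hochberg adjustment and a threshold of 0.05. CPM compare a gene between libraries, not genes with each other.

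The genes named are Acss2, the 12 highest and 12 lowest called changes (mean log2 CPM of 1 or more, no overlap, no predicted symbol), called members of 35 gene lists and abundant members of lists described. Members, rules and lists were chosen with earlier results of these data known, and other genes were named after their values were seen. On simulated counts of 13943 genes, 49.3% of 67 genes changed 1.2-fold, 76.1% of 67 changed 1.5-fold and 92.3% of 65 changed 2-fold were recovered, and 2.7% of 148 calls were false. These counts were drawn from edgeR's own model with its fitted spread and held no library that stood apart. Their share of false calls thus does not measure that of the real libraries. No 2 libraries of a group were alike within sampling noise, with a chi-square per gene of 2.24 or more in 12 pairs. Alternatives were RLE size factors, DESeq2 1.42.0, no filter, all 24 unstimulated libraries, only the libraries compared, the replicate number as a block and each library left out. Positions and promoters are RefSeq's on GRCm38.p6. A gene that met the naming rule is not reported here.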

Additional observations from a re-analysis of the deposited data

Results flagged for a closer look

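The effect of upACSS2 differed between tau and PBS by a test of the difference itself for 93 genes on day 9 (edgeR), and 11 of these were also called in tau. The differences of log2 fold change, tau minus PBS, were -0.70 for Dpysl2, -0.52 for Rgma, -0.52 for Nfia, -0.45 for Trp53i11, -0.56 for Sox11, -0.54 for Cpne5 and -0.61 for Pgam2. They were 1.37 for Kcnj16, 0.32 for Slc6a7, 0.46 for Lonrf3 and 0.29 for Vsnl1. The groups held 3 libraries each, too few for a check of single libraries by range. They were taken from the titles, with which the treatment entry conflicts for vector with hAD-tau and upACSS2 with PBS. Whether tau and PBS were exchanged for either virus was not tested.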

How the results depend on the processing

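The count of 97 genes became 368 without the filter on low counts, 54 with only the 6 libraries compared and 1 (Acss2; 367 at an unadjusted p under 0.05) with all 24 unstimulated libraries. It was 97 with RLE size factors, 113 in DESeq2 and 79 with the replicate number as a block. The 93 differences between tau and PBS became 794 without the filter, 0 in edgeR with all 24 libraries (376 unadjusted), 142 with the replicate block and 327 in DESeq2. The 38 genes called in tau and PBS with the same direction became 80 without the filter, 1 with all 24 libraries, 25 with the block and 19 with only the libraries compared. With 1 library left out, calls in tau ran from 14 to 132, calls in PBS from 529 to 1729 and differences from 3 to 918. Shared calls then ran from 10 to 30 and the log2 fold change of Acss2 from 5.33 to 5.45. The cause of these shifts was not tested. No called value changed sign. Replicate numbers did not pair the samples: same-numbered tau libraries had correlations of -0.07, 0.03 and -0.06 in their deviations from group means, and 1 of 3 correlated best with its own number. Of genes changed 1.2-fold, 49.3% were recovered in simulation, and smaller changes were not simulated, so many changes of that size would be missed at this depth and number of libraries.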

Other observations

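Of the lists not described above, those that follow had medians near 0 for upACSS2 against vector in tau. A median near 0 does not show that single members were level. Cytosolic ribosomal proteins (26 tested, median log2 fold change -0.01), respiratory chain genes (28, 0.01), heat shock proteins (16, -0.02), the unfolded protein and integrated stress response (24, 0.04), NRF2 antioxidant genes (15, -0.01), lysosome and autophagy genes (26, -0.04) and fatty acid oxidation genes (16, 0.03) had 0 called by edgeR or DESeq2. At an unadjusted p under 0.05 they had 1, 2, 0, 3, 5, 3 and 1 genes, where 1761 of 14022 genes tested did. Values of the antioxidant list ran from -0.249 to 0.357. In PBS the ribosomal and respiratory lists had 10 genes each called lower, heat shock proteins 6, the stress response 5, and the antioxidant and fatty acid oxidation lists 4 each, with none higher, where 5.35% of all genes were called lower. The lysosome list had 3 lower and 1 higher there.

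Genes of tau and microtubules (23 tested, median -0.01) and of the amyloid pathway (25, -0.00) had 0 called by edgeR or DESeq2, with 2 unadjusted in each. Mapt, which encodes tau, was at 2263, 2331 and 2172 CPM with upACSS2 and 2371, 2503 and 2327 CPM with vector, which overlap by 1 library, and App was at 2154, 2337 and 2266 CPM against 2335, 2263 and 2240 CPM. Interferon-stimulated genes (13 of 25 tested, median -0.02) and NF-kB targets (8 of 21, -0.02) had 0 called by either tool, with 1 and 0 unadjusted. The class I antigen gene H2-D1 was at 13.9, 14.01 and 13.3 CPM against 17.3, 16.7 and 17.7 CPM (log2 fold change -0.33, adjusted p 0.0557, edgeR), without overlap.

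Of the remaining marker lists, interneuron genes (16 tested, median 0.07) had 0 called by edgeR, 5 unadjusted, and Calb2 and Gad2 called by DESeq2. Calb2 was at 538, 532 and 548 CPM with upACSS2 and 455, 411 and 507 CPM with vector (0.24, adjusted p 0.0588, edgeR). Neuronal (20 tested, median 0.01), astrocyte (17, 0.08), radial glia (14, 0.09), endothelial and mural (7, 0.04) and microglia genes (4, 0.09) had 0 called by edgeR or DESeq2, with 6, 2, 2, 0 and 0 unadjusted. Neurotrophins and growth factors (19 tested, median 0.04) had 0 called by edgeR, 8 unadjusted, and Igfbp3 called by DESeq2. Fibroblast markers had 0 called by either tool and 1 unadjusted.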
